A study of Homo sapiens with 16 samples.

Results

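The MYB family of transcription factors has 3 members, MYB (c-MYB), MYBL1 (A-MYB) and MYBL2 (B-MYB). They were chosen by name, and all 3 were present among the 26364 genes counted in each cell line. Bulk RNA-seq was performed in 2 human cancer lines, Ishikawa from an endometrial adenocarcinoma and T-47D from a ductal carcinoma of the breast. Each line was kept in RPMI without phenol red that held charcoal-stripped serum and was then given 10 nM E2 (17β-estradiol, an estrogen) and harvested after 0 (vehicle), 2, 4 and 8 h. Each time point had 2 replicates, which made 8 libraries per line. The time without hormones before E2 was 3 days by the sample labels and 5 days by the methods of the study. Each line stands for 1 tumor, and the labels do not say whether replicates came from separate cultures, so p-values measure the spread between these samples, which may be technical.

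MYB proteins bind DNA through repeats of a tryptophan-rich helix-turn-helix domain and recruit coactivators such as p300 and CBP. MYB is best known for keeping blood progenitors in an undifferentiated, dividing state and is also known as an estrogen-responsive gene of estrogen receptor-positive breast cancer. MYBL1 drives male meiosis and the genes of the piRNA pathway in the testis, while MYBL2 is found in most dividing cells, where it joins the MuvB complex and FOXM1 to activate genes of G2 and mitosis. MuvB also forms the repressive DREAM complex with RBL1 or RBL2 and E2F4 or E2F5, and MYBL2 itself is a classical E2F target.

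The promoters of MYB and MYBL2 are shown because both hold an E2F site, and E2F target genes are among those described later. On GRCh37 (hg19), MYB (ENSG00000118513) lies at chr6:135502446-135540311 on the plus strand with 16 exons in its canonical transcript, and MYBL2 (ENSG00000101057) at chr20:42295659-42345135 on the plus strand with 14 exons. Each promoter runs from 250 bases before to 50 bases after the start of the canonical transcript, at chr6:135502196-135502495 and chr20:42295504-42295803 of GRCh37 on the plus strand. Capitals mark the E2F core GGCGGGA.
MYB: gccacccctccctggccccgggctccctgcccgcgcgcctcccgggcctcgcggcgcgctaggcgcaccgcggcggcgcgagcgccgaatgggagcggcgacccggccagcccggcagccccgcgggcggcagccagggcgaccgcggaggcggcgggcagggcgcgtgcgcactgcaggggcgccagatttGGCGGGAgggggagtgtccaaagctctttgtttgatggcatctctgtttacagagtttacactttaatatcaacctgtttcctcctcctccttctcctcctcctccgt
MYBL2: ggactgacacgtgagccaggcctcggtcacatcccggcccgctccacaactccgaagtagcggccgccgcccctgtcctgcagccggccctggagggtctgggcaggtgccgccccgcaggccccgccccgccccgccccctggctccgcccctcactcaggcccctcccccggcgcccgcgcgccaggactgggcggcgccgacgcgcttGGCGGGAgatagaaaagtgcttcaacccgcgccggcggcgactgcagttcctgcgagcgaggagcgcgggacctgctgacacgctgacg
The core began 58 bases before the start in MYB and 39 bases before it in MYBL2, on the strand of the gene in both. It was found on either strand in 21.4% of 19862 promoters of this length. The MYBL1 promoter held no E2F core but had 1 match to TTTGAA, the CHR element that MuvB can bind, which 11.4% of promoters held. A single arm of the estrogen response element (ERE), searched as AGGTCA, held by 11.2% of promoters, was in none of the 3. The palindromic ERE, held by 0.0503%, was in none either, and no palindrome lay within 20 kb of any of the 3 starts, where 3.83% of genes had one. The MYB site CAACNG, held by 32.1% of promoters, and the AP-1 site TGANTCA, held by 5.41%, were also without a match. The motifs were chosen after the expression values had been seen, do not overlap each other in these matches, and describe letters in these windows, not binding.

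Library totals ranged from 41177912 to 58918642 counts in Ishikawa cells and from 41223813 to 64148903 in T-47D cells. Over all 16 libraries, 71.2% to 74.6% of the counts from 1 to 10 were even, so a count need not be 1 independent fragment. Replicates varied by 6.45% (Ishikawa) and 5.02% (T-47D), given as the biological coefficient of variation. In Ishikawa cells, some 4-h and 8-h libraries resembled each other across their labels. The deviations from the line's mean over genes correlated at 0.223 between the first 4-h and the second 8-h replicate. They correlated at 0.00154 between both 4-h replicates and at 0.108 between both 8-h replicates. The remaining pairs across these labels gave 0.112 (both first replicates), 0.0829 (second 4-h, first 8-h) and 0.00427 (both second). In T-47D cells, the first 4-h and second 8-h replicates gave 0.110, and the remaining pairs across labels 0.0155 to 0.0654. Both T-47D 4-h replicates gave 0.0972 and both 8-h replicates 0.259. Ishikawa fold changes of the members and counts of the gene lists at 4 or 8 h against 0 h are therefore also given another way. The 4 Ishikawa libraries of 4 and 8 h then form 1 group, called the pooled group here. Line identity matched the markers. GATA3, a luminal breast factor, ranged from 990.5 to 1204 CPM (counts scaled to a common library size) in T-47D cells and did not exceed 0.0913 CPM in Ishikawa cells, whereas PAX8, a factor of the uterine epithelium, ranged from 193.5 to 327.7 CPM in Ishikawa cells and did not exceed 0.0485 CPM in T-47D cells. The summed level of 8 blood cell markers, the cells best known for MYB, was 0.471 to 1.48 CPM in Ishikawa cells and 1.80 to 2.53 CPM in T-47D cells, with PTPRC (CD45) at or below 0.141 CPM in every library. The E2 response was visible in known targets at 8 h. All 7 tested control genes rose in T-47D cells and 5 of 6 rose in Ishikawa cells and in the pooled group, including GREB1 (log2 fold change 2.15 ± 0.05, SE, in T-47D and 1.65 ± 0.12 in Ishikawa).

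MYBL1 (ENSG00000185697) lies at chr8:67474410-67526482 on the minus strand. The merged exons of all annotated transcripts span 5.497 kb in MYB, 7.239 kb in MYBL1 and 2.776 kb in MYBL2. MYB overlaps the antisense lncRNA MYB-AS1, which was not among the counted genes. The strand setting of the counting is not given in the sources used here, so reads of this pair cannot be told apart.

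At 0 h, MYBL2 was the most abundant member per kilobase in both lines and MYB the least. Per kilobase of merged exons, Ishikawa cells at 0 h held MYBL2 at 55.9 ± 1.07 CPM (SD, n = 2), MYBL1 at 1.87 ± 0.216 CPM and MYB at 0.645 ± 0.0193 CPM. T-47D cells held 84.0 ± 2.35, 5.93 ± 0.236 and 1.09 ± 0.171 CPM per kilobase in the same order. No replicate of one member overlapped those of another in either line. The MYBL2 share of the family's summed level per kilobase was 95.7% for Ishikawa and 92.3% for T-47D. Scaled instead by the longest annotated transcript, these shares were 94.1% and 89.7%.

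All 3 members were higher in T-47D than in Ishikawa cells before E2, which was tested over all 16 libraries with edgeR's quasi-likelihood test and Benjamini-Hochberg adjustment. The log2 difference was 1.66 ± 0.10 (SE) for MYBL1 (adjusted p = 1.48e-12), 0.76 ± 0.12 for MYB (adjusted p = 7.04e-06) and 0.59 ± 0.05 for MYBL2 (adjusted p = 3.53e-10). These lines differ in most genes: 81.9% of the 17090 genes tested in both lines passed the same threshold, and line and anything else that separated the libraries of the lines cannot be told apart. Fewer cells with a transcript and less transcript per cell cannot be told apart in bulk samples either, here or below.

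**Figure D1:**
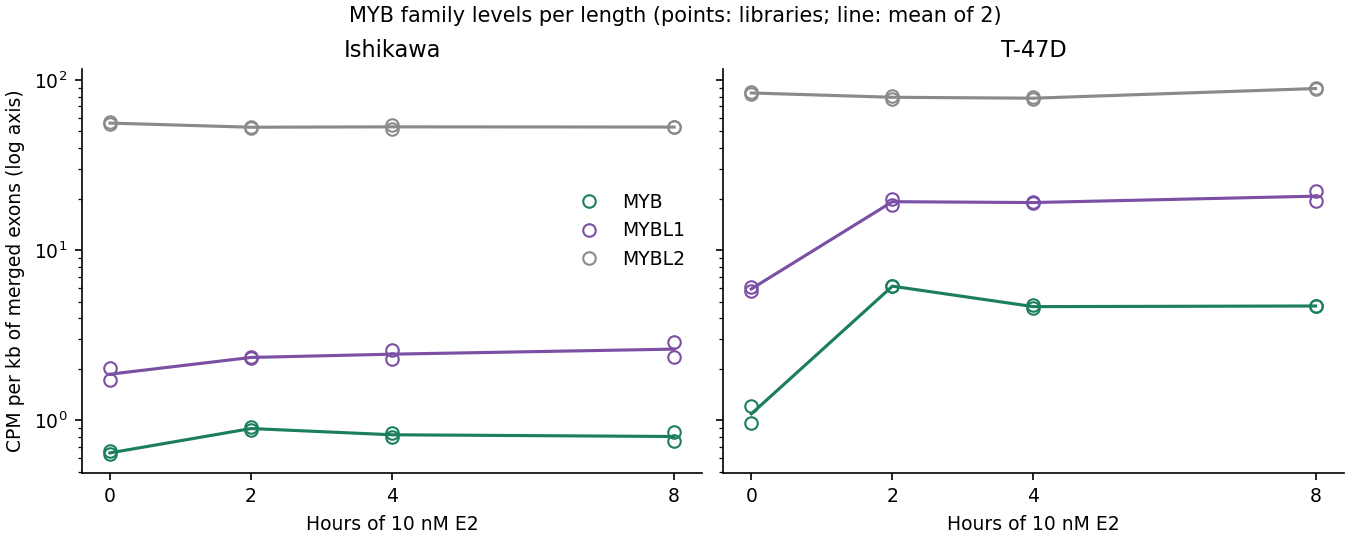
Level of each member in CPM per kilobase of merged exons (log axis) by hours of 10 nM E2, for Ishikawa and T-47D cells; points are libraries and lines join the means of 2 replicates. MYBL2 lies above the other members throughout, and MYB and MYBL1 step up after 0 h in T-47D cells.

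The largest responses of the family to E2 were those of MYB and MYBL1 in T-47D cells. The vehicle libraries of T-47D held 289 and 216 MYB counts, those of 2 h 1572 and 1406, those of 4 h 1632 and 1272, and those of 8 h 1255 and 1273. Scaled for library size, the mean level was 5.87 ± 0.894 CPM (SD, n = 2) with vehicle and 32.9 ± 0.192, 25.0 ± 0.633 and 25.3 ± 0.226 CPM after 2, 4 and 8 h. Every treated mean lay above the vehicle mean, and the highest came at the earliest time sampled. MYB rose 5.58-fold at 2 h (95% confidence interval 4.87 to 6.39, adjusted p = 2.44e-12, edgeR), 4.24-fold at 4 h (adjusted p = 1.96e-11) and 4.29-fold at 8 h (adjusted p = 1.38e-11). Ordered by log2 fold change among 15594 tested genes, it stood at places 43, 71 and 85 after 2, 4 and 8 h. As background, the shares of all tested genes called higher in T-47D cells after 2, 4 and 8 h were 4.90%, 11.1% and 15.4%, and those called lower 4.40%, 10.4% and 14.3%.

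The peak of MYB at 2 h was followed by a partial fall. From 2 h to 4 h, MYB fell by 0.40 ± 0.08 (SE) on the log2 scale (adjusted p = 0.00692, edgeR), in a contrast where 3.40% of genes were called. From 2 h to 8 h it fell by 0.38 ± 0.08 (adjusted p = 0.00287), where 16.8% of genes were called. The difference between 8 h and 4 h was 0.02 ± 0.08 with a 95% confidence interval from -0.15 to 0.19, and 3.42% of genes were called there. The fall from 2 h to 4 h missed the threshold when the first or second 2-h replicate or the second 4-h replicate was left out, with adjusted p-values of 0.0690, 0.0833 and 0.0662 at log2 changes of -0.40, -0.39 and -0.38.

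MYBL1, the germline member, showed a like step at 2 h with no called fall after it. The vehicle libraries held 1806 and 1783 MYBL1 counts, those of 2 h 6258 and 6018, those of 4 h 8699 and 6921, and those of 8 h 6860 and 7855. The mean level went from 41.9 ± 1.84 CPM (SD, n = 2) with vehicle to 135.7 ± 7.75, 134.4 ± 1.45 and 147.1 ± 13.9 CPM after 2, 4 and 8 h. The rise was 3.24-fold at 2 h (95% confidence interval 2.95 to 3.55, adjusted p = 2.44e-12, edgeR), 3.21-fold at 4 h and 3.51-fold at 8 h (adjusted p = 2.40e-12 and 5.69e-13). None of the contrasts between treated times was called for MYBL1, with log2 changes of -0.01 from 2 to 4 h, 0.13 from 4 to 8 h and 0.12 from 2 to 8 h. Without the first 8-h replicate, the last 2 of these were called, at 0.22 (adjusted p = 0.0475) and 0.20 (adjusted p = 0.0226).

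MYBL2 stayed within a narrow range in T-47D cells. Its counts were 10299 and 9238 in the vehicle libraries, then 10087 and 9275 (2 h), 13767 and 10828 (4 h), and 12232 and 11974 (8 h). The mean level was 227.9 ± 5.45 CPM (SD, n = 2) with vehicle and 213.8 ± 5.43, 211.5 ± 4.01 and 242.0 ± 3.92 CPM after 2, 4 and 8 h. The treated means thus lay below the vehicle mean at 2 and 4 h and above it at 8 h. Against 0 h no time point passed the threshold, with log2 differences of -0.09 ± 0.04 (SE, adjusted p = 0.204), -0.11 ± 0.04 (adjusted p = 0.0785) and 0.09 ± 0.04 (adjusted p = 0.136, edgeR). Between treated times MYBL2 rose by 0.18 from 2 to 8 h (adjusted p = 0.00645) and by 0.19 from 4 to 8 h (adjusted p = 0.0140). The rise from 4 to 8 h missed the threshold without either 4-h replicate or without the first 8-h replicate (adjusted p = 0.0964, 0.195 and 0.0591), and that from 2 to 8 h without the first 2-h replicate (adjusted p = 0.132).

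**Figure D2:**
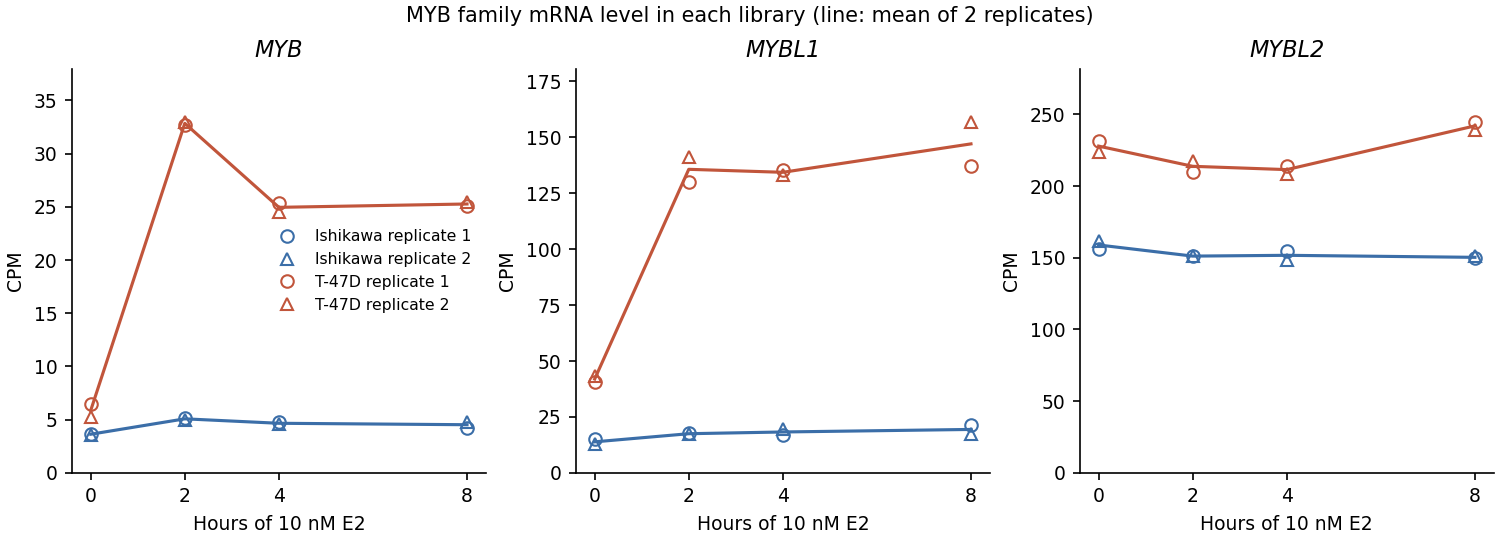
CPM, scaled within each line, of MYB, MYBL1 and MYBL2 in each of the 16 libraries by hours of 10 nM E2. Circles are replicate 1, triangles replicate 2, and lines the mean of 2 replicates. In T-47D cells MYB goes from 5.87 to 32.9 CPM and MYBL1 from 41.9 to 135.7 CPM within 2 h, while the MYBL2 means stay between 211.5 and 242.0 CPM.

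MYB did not pass the threshold in Ishikawa cells. MYB counts were 170 and 166 in the vehicle libraries, then 220 and 271 (2 h), 191 and 189 (4 h), and 249 and 211 (8 h). The mean level was 3.63 ± 0.0910 CPM (SD, n = 2) with vehicle and 5.08 ± 0.168, 4.66 ± 0.112 and 4.52 ± 0.417 CPM after 2, 4 and 8 h. The log2 differences from 0 h of 0.48 ± 0.16 (SE), 0.36 ± 0.16 and 0.31 ± 0.16 did not pass the threshold (adjusted p = 0.108, 0.144 and 0.167, edgeR). With the 4-h and 8-h libraries as 1 group, the difference was 0.34 (adjusted p = 0.0735). At these counts the 95% confidence interval of the 2-h difference ran from 0.15 to 0.82.

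MYBL1 was the only member called in Ishikawa cells. Its counts were 688 and 595 in the vehicle libraries, then 748 and 947 (2 h), 684 and 808 (4 h), and 1252 and 769 (8 h). The mean level was 13.9 ± 1.53 CPM (SD, n = 2) with vehicle and 17.5 ± 0.241, 18.3 ± 1.84 and 19.4 ± 2.62 CPM after 2, 4 and 8 h. It rose 1.32-fold at 4 h (adjusted p = 0.0320) and 1.40-fold at 8 h (adjusted p = 0.00707, edgeR), and the log2 difference of 0.34 ± 0.12 (SE) at 2 h was not called (adjusted p = 0.133). In these contrasts the shares of all genes called higher were 2.61%, 7.66% and 12.0%, and those called lower 1.74%, 6.60% and 10.1%. With the 4-h and 8-h libraries as 1 group, MYBL1 rose by 0.45 on the log2 scale (adjusted p = 0.00399). Without the second 0-h replicate the call was lost at 4 h (adjusted p = 0.240) and 8 h (adjusted p = 0.1002), as it was without the second replicate at 4 h (0.1804) and the first at 8 h (0.0845).

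MYBL2 in Ishikawa cells had counts of 7192 and 7528 with vehicle, 6405 and 8258 (2 h), 6249 and 6127 (4 h), and 8813 and 6612 (8 h). These correspond to 158.9 ± 3.82, 151.1 ± 0.137, 151.7 ± 4.65 and 150.3 ± 0.931 CPM (SD, n = 2). The differences from 0 h of -0.07, -0.07 and -0.08 on the log2 scale were not called, and their 95% confidence intervals lay between -0.20 and 0.05. The difference of the pooled group from 0 h was -0.07 (adjusted p = 0.249). None of the 3 members was called between treated times in Ishikawa cells by edgeR or DESeq2, and 0 had an unadjusted p under 0.05. Of all genes, 2.39% were called from 2 to 4 h, 0.0127% from 4 to 8 h and 2.24% from 2 to 8 h.

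The difference in response between the lines was itself tested as an interaction over all 16 libraries. The MYB response was larger in T-47D cells by 2.02 ± 0.16 (SE) on the log2 scale at 2 h, 1.74 ± 0.16 at 4 h and 1.79 ± 0.16 at 8 h (adjusted p = 5.39e-08, 3.68e-07 and 1.88e-07, edgeR). The MYBL1 response was larger by 1.38 ± 0.13, 1.29 ± 0.13 and 1.31 ± 0.13 (adjusted p = 8.54e-07, 1.24e-06 and 6.44e-07). Both members were also higher in T-47D cells at 0 h. For MYBL2 the difference in response was -0.00, -0.03 and 0.16, and none was called. With 4 and 8 h as 1 group in both lines, the difference was 1.76 for MYB (adjusted p = 1.22e-08), 1.30 for MYBL1 (adjusted p = 1.61e-07) and 0.07 for MYBL2 (adjusted p = 0.681). Across genes, the interaction was called for 2.67%, 6.03% and 10.0% at 2, 4 and 8 h, and for 1531 of 17090 genes with 4 and 8 h as 1 group.

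**Figure D3:**
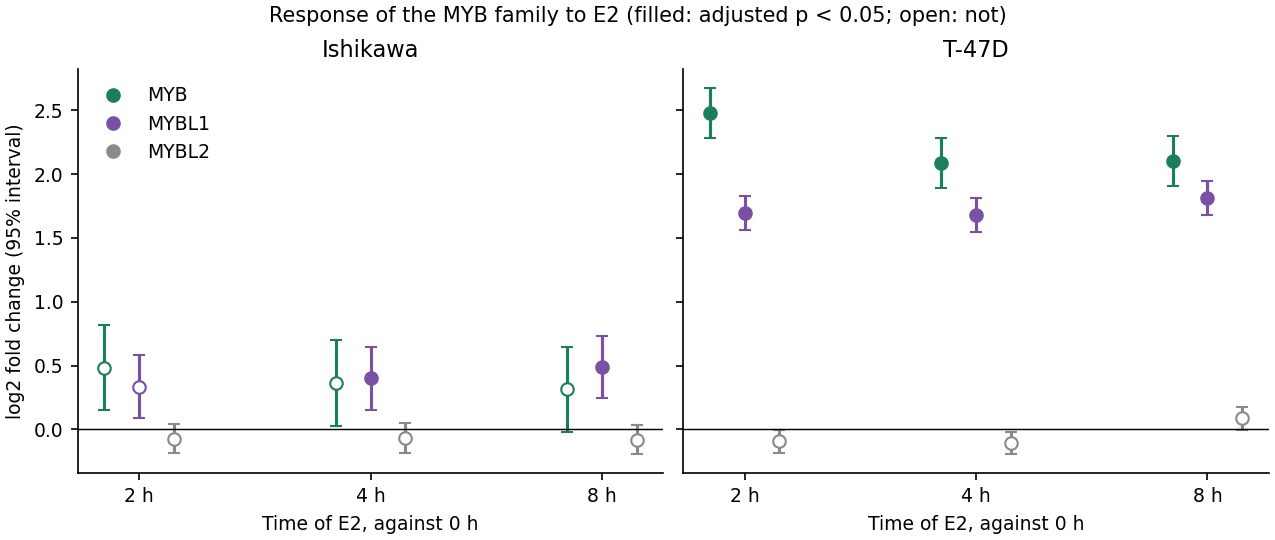
Log2 fold change against 0 h at 2, 4 and 8 h of E2 for each member, in Ishikawa and T-47D cells; error bars are 95% confidence intervals from the edgeR fit of each line, and filled points passed an adjusted p of 0.05. MYB and MYBL1 in T-47D cells lie between 1.68 and 2.48, and every other value lies between -0.11 and 0.49.

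The composition of the family shifted with these responses. In T-47D cells, MYBL1 rose from 6.52% to 18.4% of the family's level per kilobase at 2 h, and MYB from 1.20% to 5.88%, so the MYBL2 share went from 92.3% to 75.7%. At 8 h the shares were 18.1%, 4.10% and 77.8%. In Ishikawa cells at 8 h they were 4.65% for MYBL1, 1.43% for MYB and 93.9% for MYBL2. With the longest transcript as the length, the T-47D shares at 8 h were 22.8%, 5.49% and 71.7%. MYBL2 was thus the largest share at each time under either length.

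Genes of the pathways around the family were read from lists, each with its count of called members beside the background at 8 h. Some genes stand in more than 1 list, such as RBL1, MYC, CCND1, CCNB1 and TOP2A, so the counts of different lists are not independent. Of all genes, 15.4% were called higher and 14.3% lower in T-47D cells and 12.0% and 10.1% in Ishikawa cells, and in the pooled group of Ishikawa 13.5% and 12.2%. The partners of MYBL2 came in a list of 12 MuvB and DREAM subunits and partners, all tested. In T-47D cells at 8 h, 5 rose and 1 fell, with a median log2 change of 0.12 (0.00 over all genes). The risers included the repressor E2F5 (14.1 ± 1.35 CPM at 0 h and 20.5 ± 2.01 at 8 h, SD, n = 2), the pocket protein RBL1 (26.9 ± 3.00 to 37.9 ± 2.40 CPM), the MuvB core subunit LIN9 and TFDP1, the dimer partner of the E2Fs. TFDP2, another dimer partner, fell by 0.22 on the log2 scale. In Ishikawa cells 1 rose (E2F5, by 0.34) and 1 fell (TFDP2, by 0.23). Both of these counts are below the share of all genes called. The Ishikawa rise was not called without either 8-h replicate or without the second 0-h replicate, and the fall not without the first 8-h replicate. Without the first 0-h replicate, 2 of this list were called higher and 2 lower in Ishikawa cells. In the pooled group E2F5 (0.35) and TFDP2 (-0.23) were called, as was FOXM1 (-0.14).

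Among 19 cofactors and modifiers of MYB, 6 rose and 1 fell in T-47D cells at 8 h. MYBBP1A, a nucleolar protein that binds MYB, rose by 0.63 ± 0.06 (SE) from 31.0 to 47.98 CPM, and CCND1 (cyclin D1) rose by 0.43. PIAS1, a SUMO ligase, fell by 0.26. In Ishikawa cells 5 rose and 1 fell. The largest of these was PIM1, a kinase that phosphorylates MYB, which was at 14.8 ± 0.336 CPM with vehicle and at 99.9 ± 8.00 CPM after 8 h (log2 fold change 2.75 ± 0.08, adjusted p = 2.35e-12, edgeR). In T-47D cells PIM1 was not called at 8 h (0.36 ± 0.22), and the interaction was called at -2.40 ± 0.23 (adjusted p = 3.57e-07). PIM1 thus differed between the lines in the opposite direction from MYB. ETS2, a factor that acts with MYB, rose by 0.66 in T-47D cells and fell by 0.28 in Ishikawa cells. The Ishikawa call of ETS2 was lost without the second 0-h or the first 8-h replicate (adjusted p = 0.0739 and 0.107), and 3 of the 5 Ishikawa rises were left without the second 8-h replicate. The count of falls went from 1 to between 0 and 3 with single libraries left out, in Ishikawa cells, and to 3 without the first 0-h replicate in T-47D cells. In the pooled group 6 rose and 1 fell, with PIM1 at 2.77 and ETS2 at -0.29, and the pooled interaction of PIM1 was -2.55 (adjusted p = 2.78e-08).

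Of 20 genes known as MYB targets in other cells, 17 were tested in each line. In T-47D cells 6 rose and 1 fell at 8 h, and in Ishikawa cells 6 rose and 3 fell. MYC, itself an estrogen target, rose in both, from 5.14 ± 0.586 to 33.5 ± 2.37 CPM in T-47D cells (log2 fold change 2.70 ± 0.11) and from 118.0 ± 2.20 to 162.4 ± 11.4 CPM in Ishikawa cells (0.46 ± 0.06). CXCR4, a chemokine receptor, fell in T-47D cells by 1.06. It was called lower in Ishikawa cells as well (-0.76), but the call was lost when any 1 of the 0-h or 8-h replicates was left out (adjusted p from 0.0521 to 0.165) and in the pooled group (-0.49, adjusted p = 0.104). HSPA8, a heat shock cognate gene with processed pseudogenes that could share its reads, rose by 0.53 and 0.44. BCL2, the apoptosis inhibitor, was not called in T-47D cells, with 6.11 CPM at 0 h and 5.93 at 8 h. KIT had a count of 0 in the T-47D libraries at 0 and 8 h, and CD34, also a blood cell marker, was called there on counts of 2 and 2 with vehicle against 10 and 22 after 8 h. That call was lost without either 0-h replicate or the second 8-h replicate. In Ishikawa cells, only 3 targets were called higher without the second 0-h replicate, and 1 was called lower without the first replicate at 0 h or at 8 h. In T-47D cells 2 were called lower without the first 8-h replicate. In the pooled group of Ishikawa 6 rose and 2 fell, with MYC at 0.48 and HSPA8 at 0.46.

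The 30 genes of G2 and mitosis that MYBL2, MuvB and FOXM1 activate were all tested. At 2 h none was called in either line by edgeR or DESeq2, while in edgeR an unadjusted p under 0.05 was found for 3 higher and 1 lower (Ishikawa) and for 3 lower (T-47D). At 8 h in T-47D cells 12 rose and 1 fell, with a median of 0.14. They included TTK, a spindle checkpoint kinase (0.34 ± 0.07, SE), CKS2, a subunit of cyclin-dependent kinases (0.33 ± 0.06), and ECT2, needed for cytokinesis (0.25 ± 0.06), while CCNF (cyclin F) fell by 0.25. Without the second 0-h replicate 5 were called higher, and ECT2 was called neither then nor without the second 8-h replicate. In Ishikawa cells 1 rose (CDK1, by 0.23) and 2 fell (CDC25C and AURKB), with a median of -0.04, both below the share of all genes called. None was called without the second 0-h replicate, and 5 were called higher and 1 lower without the first. Without the first 8-h replicate none was called lower. CDK1 lost its call when any 1 of the 2-h or 8-h replicates was left out. In the pooled group 2 rose (CDK1 and CKS2) and 1 fell (CDC25C).

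In T-47D cells at 8 h, the list with the largest share of called genes after the E2 controls was that of 26 E2F targets of G1 and S phase. At 2 h none was called by edgeR or DESeq2 (2 at an unadjusted p under 0.05 in each), 14 rose at 4 h and 21 rose at 8 h, with medians of -0.01, 0.15 and 0.47. Of all genes, 11.1% were called higher at 4 h and 15.4% at 8 h. MCM10, a replication initiation factor, went from 37.3 ± 1.52 to 63.96 ± 1.00 CPM (log2 fold change 0.78 ± 0.06, adjusted p = 9.30e-09). CDC6, which loads the MCM helicase, rose by 0.70, the helicase subunit MCM6 by 0.63, and E2F1 by 0.63. From 4 to 8 h, 16 of the 26 rose and none fell, where 3.42% of all genes were called in either direction. In Ishikawa cells at 8 h, edgeR called none higher (DESeq2 1, and 3 at an unadjusted p under 0.05 in each tool), and 4 fell (RFC4, E2F1, MCM5 and TYMS, by 0.26, 0.25, 0.22 and 0.22). The interaction at 8 h was called for 20 of the 26, all higher in T-47D cells, and for 10.0% of all genes in either direction. The 4 Ishikawa calls became 0 without the second 0-h replicate, 2 without the first 8-h replicate and 1 without the second, and without the first 0-h replicate 2 were called higher. In the pooled group 1 rose and 4 fell, with TYMS no longer called (-0.17, adjusted p = 0.0539). With 4 and 8 h as 1 group in both lines, which also averages the T-47D response over these times, the interaction was called for 13 of the 26, all higher in T-47D cells. Over all 17090 genes tested in both lines, 1531 were called in that fit, in either direction.

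**Figure D4:**
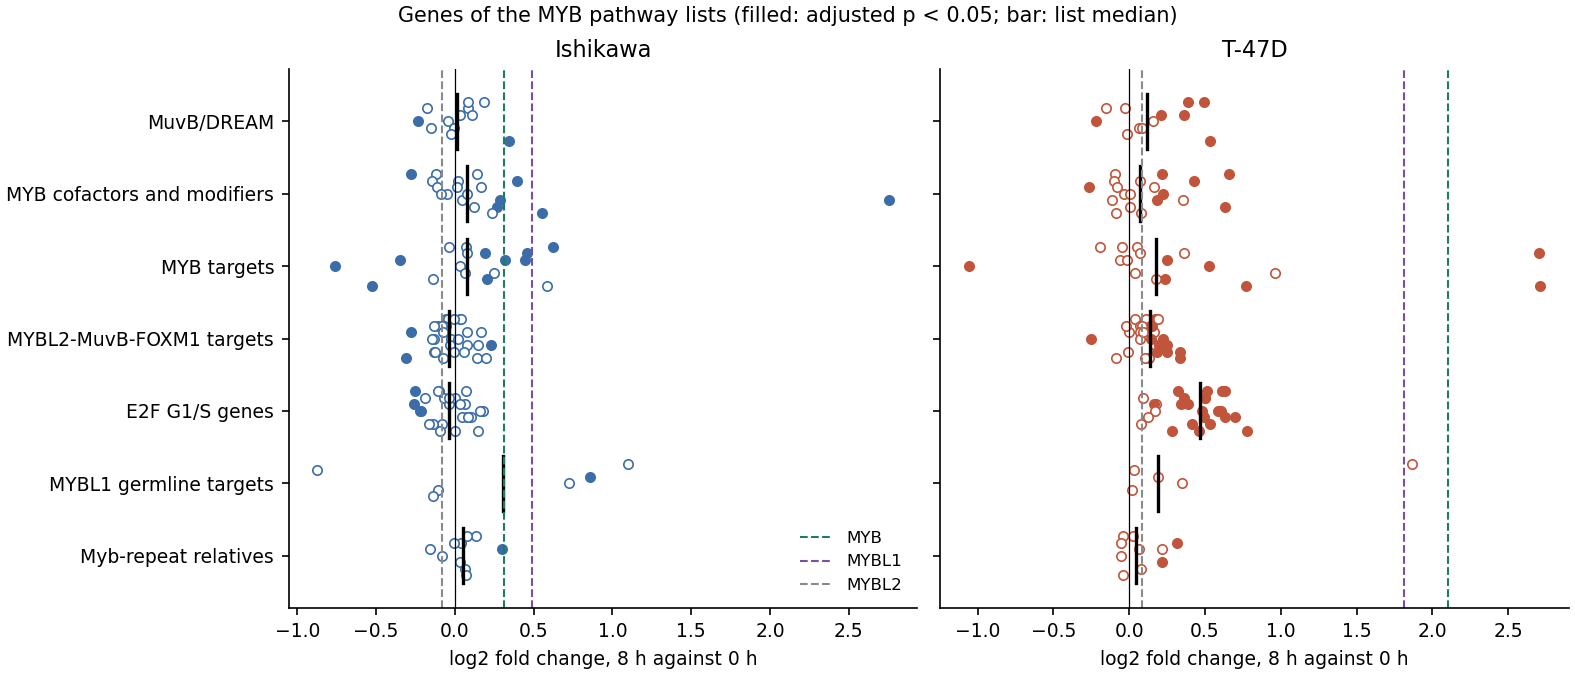
Log2 fold change at 8 h of E2 against 0 h for the tested genes of each list (points), in Ishikawa and T-47D cells, with filled points for an adjusted p under 0.05, black bars at list medians and dashed lines at the 3 members. In T-47D cells, 21 of 26 E2F genes of G1 and S phase and 12 of 30 MYBL2-MuvB-FOXM1 targets were called higher.

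Targets that MYBL1 activates in the testis were largely at or near 0. Of 16 such genes, 6 passed the filter on low counts in the Ishikawa fit and 5 in the T-47D fit. PIWIL1, SPO11 and HORMAD1 had a count of 0 at 0 and 8 h in both lines, and DDX4 did not exceed a count of 2 there. None was called in T-47D cells at 8 h, where MYBL1 had its highest mean, by edgeR or DESeq2, and 1 had an unadjusted p under 0.05 in edgeR and 0 in DESeq2. TDRD5, a piRNA factor, was at 29.4 CPM at 0 h and 30.1 CPM at 8 h in those cells and MNS1 at 9.92 and 10.0 CPM. In Ishikawa cells PLD6, a nuclease of the piRNA pathway, rose from 5.42 ± 0.444 to 9.82 ± 0.416 CPM (0.86 ± 0.12). It was called in the pooled group (0.89) and with any 1 library left out. Of 10 more distant genes with Myb repeats, SNAPC4 and MYSM1 rose in T-47D cells at 8 h, by 0.32 and 0.21, and DNAJC2 rose in Ishikawa cells by 0.30 (also 0.30 in the pooled group). Counts of 2 and 1 in 10 are near the 15.4% and 12.0% of all genes called higher. The call of DNAJC2 did not hold without the second 0-h or the first 8-h replicate, 3 were called higher and 1 lower in Ishikawa cells without the first 0-h replicate, and without either 0-h replicate or the second 8-h replicate only 1 T-47D call was left.

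The genes with the pattern most like those of MYB and MYBL1 were found by the root mean square difference over the 6 log2 fold changes, among 12943 genes. The nearest to MYB were ADAMTS8, a secreted protease (0.263), ARC, an immediate-early gene of neurons (0.312), STC2, a secreted glycoprotein (0.317), HEY2, a Notch target (0.341), and KCTD6 (0.341). ADAMTS8 was at a far lower level than MYB in T-47D cells, at 0.282 ± 0.0810 CPM at 0 h and 1.42 ± 0.120 at 2 h. So was ARC, at 0.335 ± 0.131 CPM at 0 h and 2.77 ± 0.733 at 2 h. The nearest to MYBL1 were MAP6D1 (0.124), the transcription factor RUNX1 (0.141), KCTD6 (0.170), HEY2 (0.184) and MICB, a stress-induced ligand of natural killer cells (0.200). MAP6D1 went from 73.0 ± 0.577 to 223.3 ± 5.21 CPM in T-47D cells at 2 h, and RUNX1 from 18.1 ± 0.614 to 63.3 ± 3.30 CPM. Over the 16 libraries, each centered on its line, Pearson's r was 0.854 to 0.971 for the genes near MYB and 0.901 to 0.976 for those near MYBL1. These libraries share time points and lines, so r is a description. KCTD6 and HEY2 stood in both lists. ARC, HEY2 and MICB were not called at any time in Ishikawa cells, where MICB was at 0.173 ± 0.0625 CPM at 0 h. Their Ishikawa values are thus uncertain.

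**Figure D5:**
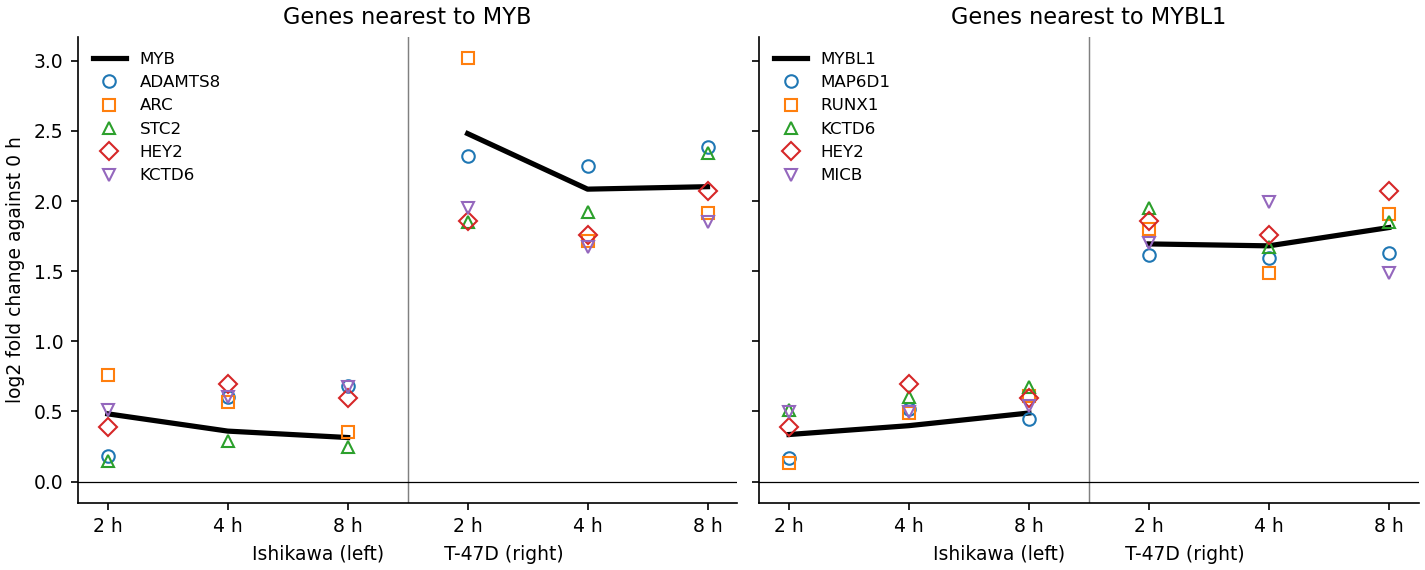
Log2 fold change against 0 h at 2, 4 and 8 h in Ishikawa and T-47D cells for MYB and MYBL1 (black lines) and the 5 genes nearest to each (open symbols). The nearest genes share the step at 2 h in T-47D cells by construction. ARC, at a low level in these cells, exceeds MYB there with 3.02 ± 0.45 (SE).

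The nearest counted genes on each side of the members were read as well. VCPIP1, 14.2 kb from MYBL1, rose in T-47D cells from 58.3 ± 0.380 to 77.1 ± 1.91 CPM at 2 h (0.40 ± 0.05, SE, adjusted p = 4.16e-05, edgeR) and stayed called at 4 h (0.21) and 8 h (0.20). Its difference in response between the lines was not called at 2 h (0.20, adjusted p = 0.413) or 4 h (0.13, adjusted p = 0.495, edgeR). On the other side of MYBL1, ADHFE1 was not called at any time in either line. HBS1L, 78.3 kb from MYB, was called in T-47D cells at 8 h (0.19 ± 0.06, adjusted p = 0.0249), where MYB had risen by 2.10. AHI1, on the other side of MYB, was added after the values were seen because the nearest entry there, MIR548A2, had a count of 0 in every library. It was called at 8 h in T-47D cells (0.29 ± 0.10, adjusted p = 0.0284). IFT52, beside MYBL2, was not called at any time in either line, and GTSF1L on the other side had at most 2 counts in a library.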

How the data were processed

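Poly(A) RNA was made into directional libraries. HISAT2 (hg19), SAMtools and featureCounts (UCSC Known Genes) were run by the authors, who deposited unnormalized counts per gene in a table for each cell line. Tool versions, strand setting and how read pairs or multimapping reads were counted are not given in the sources used here. No column was left unmatched to a sample (0 columns).

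Analysis used edgeR 4.0.16 (R 4.3.3): filterByExpr, TMM scaling, a quasi-likelihood fit with time as a factor in each line (15787 genes tested in Ishikawa, 15594 in T-47D), and a fit of all 16 libraries for baseline and interaction tests. Calls required an adjusted p (Benjamini-Hochberg) under 0.05. CPM used library sizes scaled by TMM within each line. Levels per kilobase and shares of the family used the TMM scaling of all 16 libraries instead. Standard errors of log2 fold changes were derived from the F statistics. The fits were tested on simulated data. No replicate pair held identical values, and each pair differed by more than counting noise (chi-square per gene 3.60 to 10.8).

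Genes are named as follows: the 3 members; per list, line and direction, up to 4 called genes with the largest change at 8 h; the 5 genes nearest to each responding member, averaging 50 counts or more; and flanking genes. Further genes of the lists (BCL2, and those at or near a count of 0) were named after their values were seen. The members and lists were chosen with earlier results of these data known. Gene models came from GENCODE on GRCh37. Alternatives were DESeq2 1.42.0, RLE scaling, other filters and thresholds, counts divided by 2, fits of only the groups compared, a replicate block, 4 and 8 h as 1 group, and leaving out each library. For the lists, the last 2 were added after seeing the data.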

Additional observations from a re-analysis of the deposited data

Results flagged for a closer look

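The response to E2 differed between T-47D and Ishikawa cells for MYB and MYBL1 at every time point, by a test of the difference itself (the interaction of line and time in edgeR over 16 libraries). MYB rose further in T-47D cells by 2.02 on the log2 scale at 2 h, 1.74 at 4 h and 1.79 at 8 h. MYBL1 rose further by 1.38, 1.29 and 1.31. Every treated T-47D mean lay above the vehicle mean for both genes. Line and any other difference between the libraries of the lines cannot be told apart. Groups of 2 libraries were too small to look for single libraries that stood apart within a group.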

How the results depend on the processing

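The rises of MYB and MYBL1 in T-47D cells, their interactions and the baseline differences of all 3 members kept direction and call under each alternative run, including DESeq2. Leaving out 1 library gave 455 unchanged, 12 reversed, 11 weaker and 2 stronger member values, and the other alternatives 453, 2, 2 and 2. The cause was not tested. MYBL1 in Ishikawa cells was called at 2 h with no filter (0.32, adjusted p = 0.0481) and lost at 4 h at an adjusted p under 0.01 (0.40). At that threshold MYBL2 from 4 to 8 h in T-47D cells was also lost (0.19), and under 0.1 MYBL2 at 4 h was called (-0.11). With 4 and 8 h as 1 group, MYBL2 changed sign between 2 and 4 h in Ishikawa cells (-0.00155) and in the 4-h interaction (0.0707), uncalled in both. Leave-one-out ranges were, in Ishikawa cells, MYB 8 against 4 h -0.138 to 0.0525, MYBL1 at 4 h 0.291 to 0.519, at 8 h 0.343 to 0.612, 4 against 2 h -0.0432 to 0.159 and 8 against 4 h -0.0532 to 0.221, and MYBL2 4 against 2 h -0.0294 to 0.0369, 8 against 2 h -0.0122 to 0.00391 and 8 against 4 h -0.0442 to 0.0228. In T-47D cells they were MYB 4 against 2 h -0.424 to -0.379 and 8 against 4 h -0.00540 to 0.0402, MYBL1 4 against 2 h -0.0739 to 0.0420, 8 against 2 h 0.0153 to 0.201 and 8 against 4 h 0.0336 to 0.219, and MYBL2 4 against 2 h -0.0439 to 0.00737, 8 against 2 h 0.149 to 0.201 and 8 against 4 h 0.173 to 0.214. For the MYBL2 interaction at 2 h the range was -0.0416 to 0.0266.

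Libraries with the same replicate number did not deviate together over all tested genes (correlations of -0.115 to 0.0533 in Ishikawa and -0.0547 to 0.0595 in T-47D). Such correlations cannot tell whether equal numbers share a culture or harvest, and the main fits assumed no pairs. With the number as a replicate block, MYB at 2 h in T-47D cells was 2.48, no member call changed, and 1324 genes were called there instead of 1450. Counts of called genes that moved by over 1.5 times did so with the threshold (at 0.01, T-47D 2 h 901 and 4 h 1991 of 3355, 4 against 2 h 268 of 530, 8 against 4 h 204 of 533, 8 against 2 h 1466 of 2614; Ishikawa 2 h 392 of 686, 4 h 1076 of 2251, 8 h 1755 of 3488, 4 against 2 h 141 of 377, 8 against 2 h 134 of 353, 8 against 4 h 1 of 2; interactions 533 of 1031 at 4 h and 919 of 1712 at 8 h). At 0.1 they were 3386 for Ishikawa 4 h, 620 and 677 for 4 and 8 against 2 h, and 821 and 943 for T-47D 4 against 2 h and 8 against 4 h. With no filter they were 1162 for Ishikawa 2 h, 945, 1070 and 21 for its 4 against 2 h, 8 against 2 h and 8 against 4 h, and 830 and 914 for T-47D 4 against 2 h and 8 against 4 h. As 1 group, Ishikawa 4 and 8 h gave 4055 genes against 0 h and 764 against 2 h. DESeq2 gave 581 for Ishikawa 8 against 2 h, and fits of only the groups compared gave 804 there, 0 for 8 against 4 h and 1264 for T-47D 4 against 2 h. List counts at 8 h that moved by over 1.5 times with a single library are given beside each list. Of the members, MYB had the fewest counts, with 166 to 271 per library in Ishikawa cells. Whether depth kept it from being called there was not tested.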
